A study of Mus musculus with 19 samples.

Results

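Transcripts of blood vessel endothelium and of angiogenesis were followed as a module of 37 genes in mouse ovaries that lacked Dhh, Ihh or both, which encode the Desert and Indian forms of hedgehog, secreted signals. The member genes were taken as a given list, chosen with earlier results of these data known. Each was read from a probe set annotated to that gene alone, the one with the highest mean log2 signal over all arrays. All 37 members had such a probe set among 18193 genes on the array, and 35 passed a filter on low signal that left 12381 genes for testing. Esm1 and Dll4 lay under the filter and were not tested.

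RNA of whole ovaries of mice aged 2 months was hybridised to 19 arrays. Controls (Ihh_Dhh_dhet in the labels) were heterozygous for both genes and numbered 8 arrays. The Dhh KO and Ihh KO groups each held 4 arrays, and the group lacking both genes (Dhh/Ihh DKO, here DKO) held 3 arrays. The labels describe the deletion as specific to the ovary, and the promoter or Cre that drove it is not given in the sources used here. The controls thus carried a mutant allele of each gene, and no wild-type ovary was analysed here. The comparisons ask how vessel transcripts differ when either ligand, or the pair, is missing. Nothing in the labels says that arrays of a group came from separate animals, so p-values measure only the spread between these arrays.

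Blood vessels are lined by endothelial cells, which are joined by cadherin and claudin junctions and carry receptors for angiogenic ligands. VEGF ligands act through Kdr, Flt1 and their co-receptor Nrp1, angiopoietins act through Tek, and apelin acts through Aplnr. In the adult ovary vessels grow and regress in each cycle: capillaries enter the theca layer of growing follicles and then the corpus luteum, one of the most densely vascularised tissues of the body.

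Upstream sequences are shown first for 4 members, of which 3 fell in DKO (Emcn, Cldn5 and Nrp1). The other, Robo4, had a like change (-0.49) that did not pass the threshold (limma adjusted p = 0.29). The sequences are given because the endothelial ETS factor Erg is itself a member and because GLI factors carry the Hedgehog response. Each is the 250 bases before a RefSeq transcription start in assembly GRCm38.p6, read 5′ to 3′ on the plus strand, which is the gene's own strand in all 4. Capitals mark GGAA, the core of ETS factor sites, or its reverse complement TTCC. The windows lie at chr3:137340828-137341077 (Emcn), chr16:18776597-18776846 (Cldn5), chr8:128358823-128359072 (Nrp1) and chr9:37401722-37401971 (Robo4).
Emcn: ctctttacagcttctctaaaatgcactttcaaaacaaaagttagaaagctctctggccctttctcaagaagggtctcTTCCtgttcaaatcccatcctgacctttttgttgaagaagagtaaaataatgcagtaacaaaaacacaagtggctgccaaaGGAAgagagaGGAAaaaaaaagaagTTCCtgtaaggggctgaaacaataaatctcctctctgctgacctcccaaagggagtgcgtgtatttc
Cldn5: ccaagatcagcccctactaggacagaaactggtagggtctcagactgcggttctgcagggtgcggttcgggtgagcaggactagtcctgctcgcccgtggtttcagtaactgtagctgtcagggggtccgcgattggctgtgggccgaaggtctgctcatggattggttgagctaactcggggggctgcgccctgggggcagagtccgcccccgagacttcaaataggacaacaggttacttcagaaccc
Nrp1: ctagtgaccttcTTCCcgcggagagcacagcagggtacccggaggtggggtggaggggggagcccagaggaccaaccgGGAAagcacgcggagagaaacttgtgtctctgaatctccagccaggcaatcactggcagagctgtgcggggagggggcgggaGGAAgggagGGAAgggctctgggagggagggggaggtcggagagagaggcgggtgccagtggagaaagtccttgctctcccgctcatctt
Robo4: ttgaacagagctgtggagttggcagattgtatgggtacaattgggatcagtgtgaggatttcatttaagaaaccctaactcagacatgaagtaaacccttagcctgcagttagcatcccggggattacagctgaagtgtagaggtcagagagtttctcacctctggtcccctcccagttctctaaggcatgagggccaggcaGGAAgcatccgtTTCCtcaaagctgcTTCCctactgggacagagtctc
The window of Emcn held 4 cores, that of Nrp1 4, that of Robo4 3 and that of Cldn5 0.

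Across the module 21 of 37 members had an entry in the promoter table, with 26 windows, since some have several starts. Aplnr, which also fell in DKO, had no entry, so the motif results do not cover it. Every motif was searched on both strands. The core GGAA stood in 92.3% of the member windows and in 93.4% of all 32851 windows of the table. Its longer form CAGGAAG, which contains the core and so overlaps it, stood in 9 of the 26 member windows (34.6%) against 10.8% of all windows. The 8 members with that form were Apln, Cd34, Egfl7, Emcn, Erg, Notch4, Rasip1 and Robo4. The other long ETS form ACCGGAAGT was in 0 member windows and in 0.804% of all. The GLI motif GACCACCCA was likewise in 0 member windows and in 0.225% of all. The SOX motif AACAAT was found for Emcn, Erg and Tek, in 11.5% of member windows against 9.42% of all, and the E-box CANNTG in 57.7% against 66.2%. A match is only a run of letters, and a window without one says nothing about binding elsewhere.

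The arrays fell into 2 hybridization sets. Controls 1 to 4 and the 3 DKO arrays had a BioC 3′ to 5′ ratio of 0.987 to 1.06, and controls 5 to 8 with both single knockouts had one of 0.685 to 0.781, so each mutant group was compared with controls of its own set. Same-numbered controls of the sets (1 with 5 and so on) deviated together (correlation 0.537 to 0.77 across genes), and the labels do not say whether they share RNA. The 3′/5′ signal ratio of Gapdh was 1.69 to 1.80 in controls 1 to 4 and 1.68 to 1.78 in DKO. It was 1.89 to 2.01 in controls 5 to 8, 2.08 to 2.79 in Dhh KO and 1.90 to 2.37 in Ihh KO. The signal of Dhh lay between 606.4 and 1371 over the 8 controls. It was at most 25.4 in Dhh KO and at most 14.2 in DKO, while Ihh KO 1 to 3 gave 526.6 to 708.8. Its signal of 2.96 on Ihh KO 4 contradicts the label of that array, so Ihh KO results are given with and without it. The signal of Ihh lay between 138.8 and 425.5 over the controls and between 107.7 and 167.8 in Dhh KO. It was at most 52.7 in DKO, at most 43.5 over the first 3 Ihh KO arrays and 108 on Ihh KO 4. The 6 defining endothelial markers Pecam1, Cdh5, Tie1, Kdr, Cldn5 and Emcn all passed the filter, so whole-ovary RNA carried endothelial transcripts on every array. Their weakest reading was 89.8, for Tie1 on DKO 3.

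In DKO ovaries 4 members of the module fell: the apelin receptor Aplnr, the sialomucin Emcn, the tight junction claudin Cldn5 and the VEGF co-receptor Nrp1. These are 11.4% of the 35 tested members, where 3.02% of all genes were called in that comparison and 1.45% were called lower (limma, Benjamini-Hochberg adjusted p under 0.05 over all 12381 genes). No member was called higher (1.57% of all genes were). Of the 35 members, 29 (82.9%) had a log2 value below that of the controls, against 45.9% of all genes, with a median log2 change of -0.37 against 0.02 for all genes. At an unadjusted p under 0.05 there were 10 members (28.6%, against 16.1% of all genes), all of them lower (7.17% of all genes). On 9 members (25.7%) all 3 DKO arrays lay below all 4 controls, against 6.07% of all genes (13.2% in either direction). These shares are descriptions, since the genes of a module are not independent and the list was chosen with earlier results of these data known. Because the RNA came from whole ovaries, fewer endothelial cells and less of these RNAs per cell cannot be told apart.

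**Figure D1:**
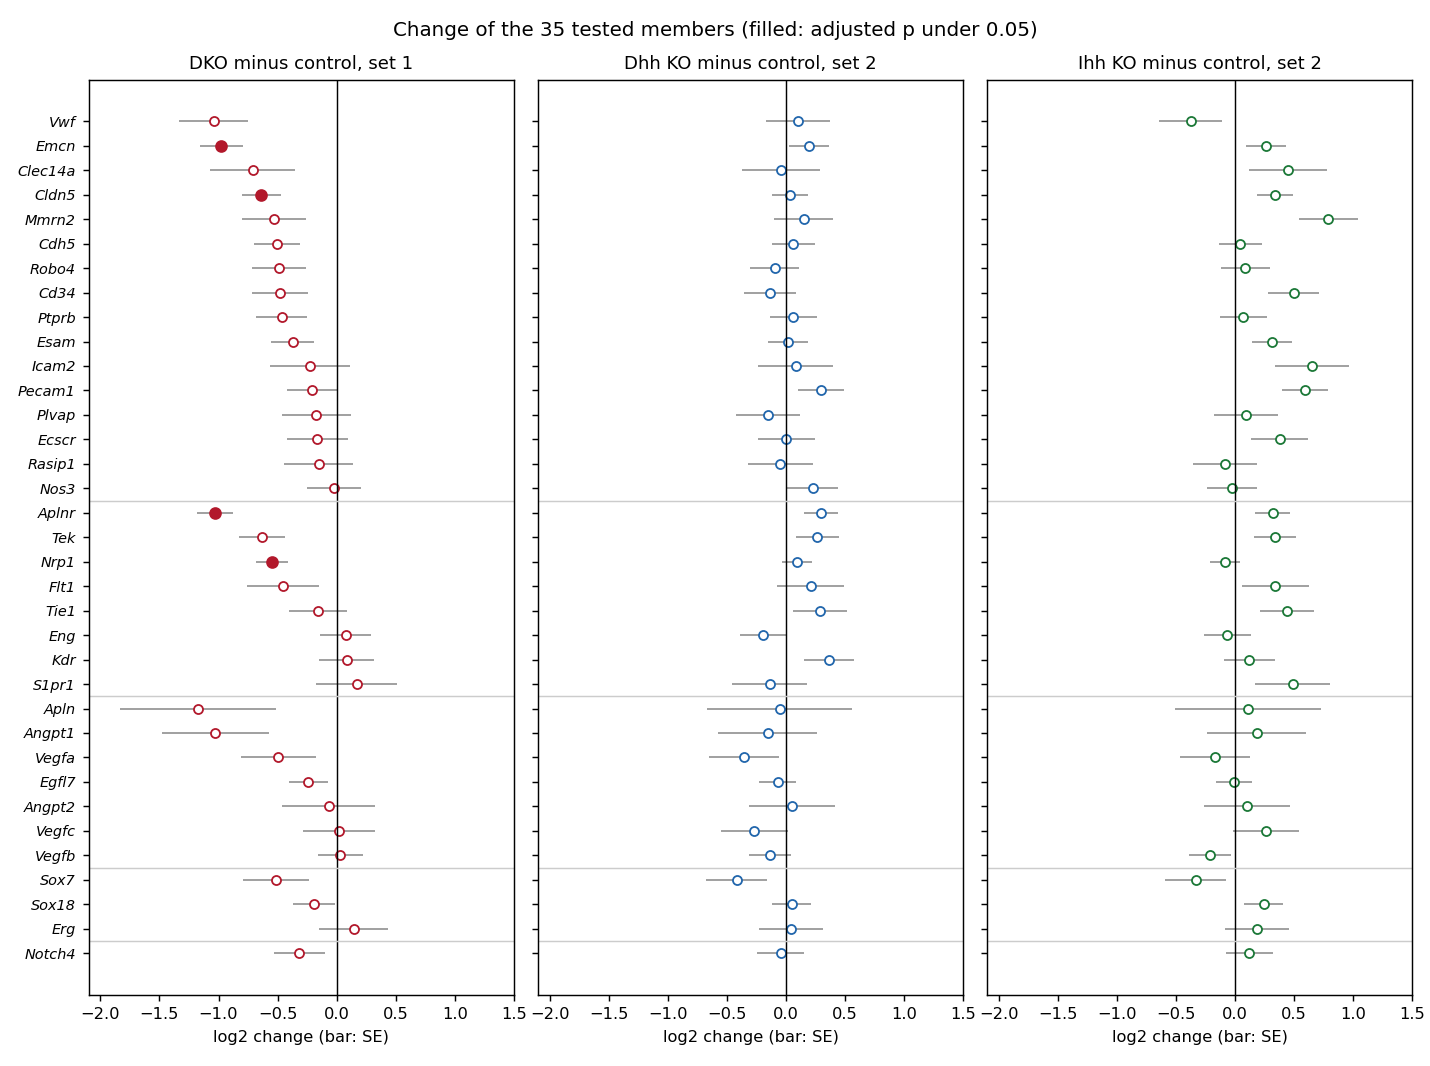
Log2 change of each of the 35 tested members (rows, grouped by role) in DKO, Dhh KO and Ihh KO against controls of the same hybridization set; points are estimates of the limma model, bars are ±1 SE and filled points passed an adjusted p of 0.05. In DKO 29 members lie left of 0 and 4 are filled, in Dhh KO 15 lie left of 0 and in Ihh KO 9, with no filled point in either.

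Aplnr, a G protein-coupled receptor of sprouting and venous endothelium, had signals of 2088, 2318, 2233 and 2393 on controls 1 to 4. In DKO it read 1516, 934.7 and 943.5. Every DKO array lay below every control, and DKO 2 and 3 lay well under DKO 1. The means were 2258 ± 130 (SD, n = 4) and 1131 ± 333 (SD, n = 3). Aplnr fell by 1.03 on the log2 scale (SE 0.156, n = 3 against 4, limma adjusted p = 0.0016). Its second, weaker probe set told the same: 553.3 to 783.2 on the controls and 488.9, 315.7 and 305.9 in DKO, again without overlap. Aplnr was the member called under all 34 alternative settings, with a log2 change between -1.26 and -0.91 and an adjusted p of at most 0.0451.

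Emcn, a sialomucin of capillary and venous endothelium, read 906.9, 952.7, 1262 and 920.8 on controls 1 to 4. It read 633.5, 539.3 and 377.4 in DKO, where the highest array stayed under the lowest control. Emcn fell by 0.98 (SE 0.181, limma adjusted p = 0.0064). Without DKO 3, the array with the lowest signal, the change was -0.77 with an adjusted p of 0.0508.

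Cldn5, the claudin that seals endothelial tight junctions, read 952.3, 957.3, 1129 and 939.2 on the controls and 807.7, 638.9 and 496.4 in DKO. The groups did not overlap, and DKO 1 came closest to the controls. Cldn5 fell by 0.64 (SE 0.162, limma adjusted p = 0.0398). Nrp1, which binds VEGF and semaphorins, read 1694, 1851, 1685 and 1701 on the controls and 1219, 1506 and 898.1 in DKO. Here DKO 2 was the closest to the controls, and the groups again did not overlap. Nrp1 fell by 0.55 (SE 0.138, limma adjusted p = 0.0364), and all 4 of its probe sets were lower in DKO without overlap, by 0.55 to 1.14. Both calls depended on single arrays. Leaving out DKO 3 gave a change of -0.46 for Cldn5 (adjusted p = 0.207) and of -0.35 for Nrp1 (adjusted p = 0.196). Without control 1, 2 or 3 in turn the calls of Cldn5 and Nrp1 were also lost, without DKO 2 or Ihh KO 2 that of Cldn5 and without DKO 1 that of Nrp1. In a fit to the arrays of the first set alone Aplnr remained called, and the adjusted p was 0.0638 for Emcn, 0.126 for Cldn5 and 0.167 for Nrp1.

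**Figure D2:**
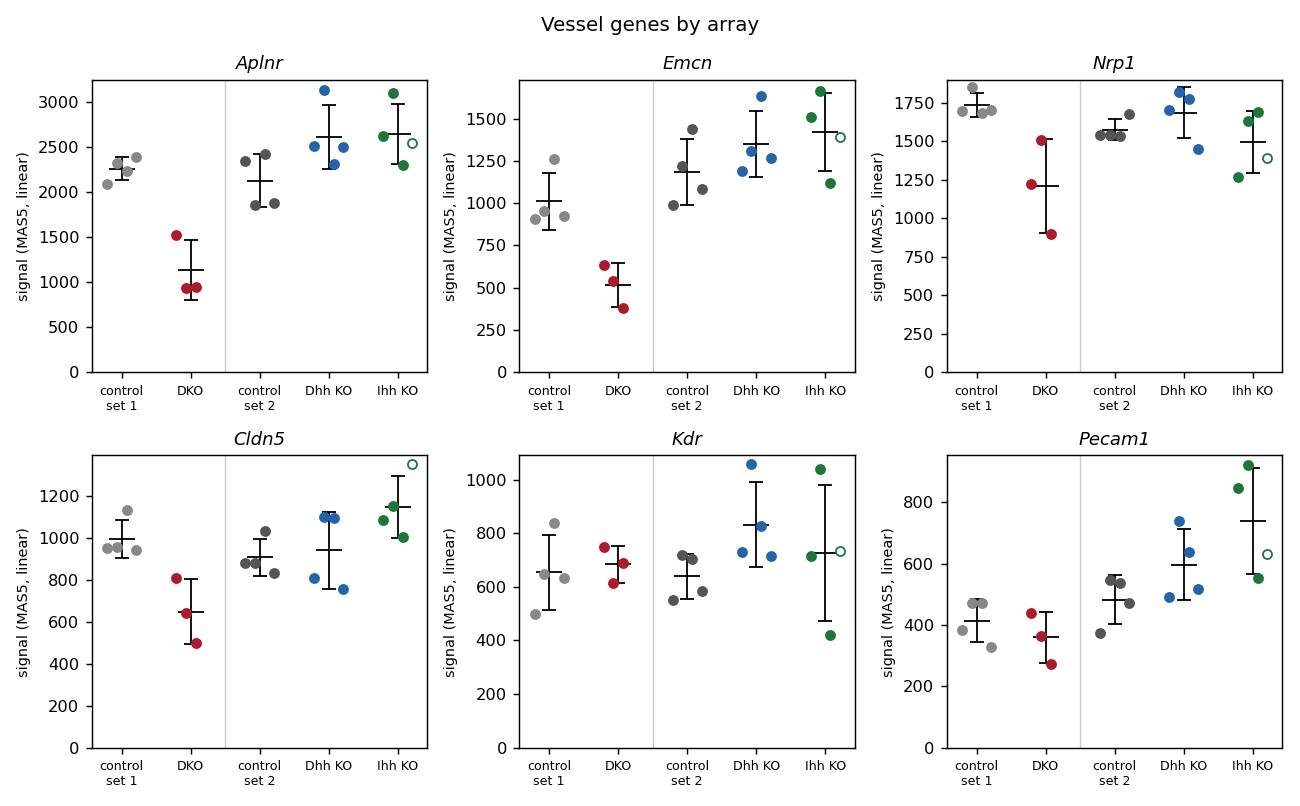
Deposited signal (linear, y axis from 0) of 6 members on every array; points are arrays, horizontal bars are group means with ±1 SD, the vertical line parts the hybridization sets and the open circle is the array labelled Ihh KO 4. Aplnr, Emcn, Nrp1 and Cldn5 show every DKO array below every control of the first set, Kdr shows overlap in every group, and Pecam1 shows all 4 Ihh KO arrays above the controls of the second set.

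The 16 junction, surface and other structural genes were all lower in DKO, with a median log2 change of -0.47 and 5 of them without overlap. Besides Emcn and Cldn5 these 5 were Vwf, Cdh5 and Esam, and Vwf, Cdh5 and Esam did not pass the threshold. Vwf, the clotting glycoprotein that endothelium and megakaryocytes store, read 182.2, 188.6, 238.8 and 301 on the controls and 128.4, 88.7 and 100.9 in DKO. Its log2 change of -1.04 (SE 0.289) matched that of Aplnr in size, but its adjusted p was 0.060. Vwf was called in 3 of 33 alternatives: with all 8 controls pooled, with array weights and without Ihh KO 4. Cdh5, the VE-cadherin of adherens junctions, read 630.3, 561.5, 811.1 and 628 on the controls and 547.5, 495 and 353.6 in DKO, a change of -0.50 (SE 0.196, limma adjusted p = 0.198). Esam, an adhesion molecule of tight junctions, read 764, 662.3, 834.4 and 659.2 and then 653.1, 580 and 462.4, a change of -0.37 (SE 0.183). For Cdh5 and Esam the gap between the groups was narrow, 547.5 against 561.5 and 653.1 against 659.2. The second probe set of Cdh5 overlapped, with 718.7, 763.9 and 475.8 in DKO against 512.7 to 1121 on the controls (-0.30).

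In the other 11 structural genes DKO and control arrays overlapped. Clec14a, an endothelial lectin, and Mmrn2, a matrix glycoprotein that binds it, both had DKO 3 as their lowest array. Clec14a read 534.2 to 1080 on the controls and 690.2, 551.8 and 230.5 in DKO (log2 change -0.71), and Mmrn2 read 330.5 to 381 and 369, 213.7 and 173.9 (log2 change -0.53). The sialomucin Cd34 split the DKO arrays: it read 1518 on DKO 1, within the control range of 980.8 to 1534, against 821.8 and 722.1 on the others. Ptprb, the phosphatase that acts on Tek and VE-cadherin, read 603.8 to 1053 on the controls and 419.2 to 718.3 in DKO (-0.46). The guidance receptor Robo4 read 255.1 to 472.7 and 215.7 to 310.2 (-0.49). Both had an unadjusted p just under 0.05 and an adjusted p of 0.29. The changes of the remaining members were smaller. They were -0.23 for the leukocyte ligand Icam2, -0.21 for the junction marker Pecam1, -0.17 for the fenestral diaphragm protein Plvap, -0.16 for Ecscr, -0.15 for the lumen regulator Rasip1 and -0.02 for the nitric oxide synthase Nos3. Pecam1, a general endothelial marker, read 383.9, 471.5, 471.8 and 327.5 on the controls and 439, 365.4 and 274 in DKO, so only DKO 3 left the control range.

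The receptors did not move together in DKO: 5 of 8 had lower values and 3 had higher ones. Tek, the angiopoietin receptor, read 527, 580.2, 626.7 and 480.7 on the controls and 464.2, 377.9 and 249.2 in DKO without overlap, a change of -0.63 (SE 0.194, limma adjusted p = 0.090). Its partner Tie1 read 105.3 to 154.3 and 147.6, 115.1 and 89.8, a change of -0.16. Flt1, a VEGF receptor that also acts as a decoy, read 216.1 to 396.6 and 186.2 to 261.3, a change of -0.45 (SE 0.306). Kdr, the main signalling receptor of VEGF in endothelium, did not share the lower values. It read 499.8, 646.8, 837.2 and 631.1 on the controls and 750, 614.3 and 687.7 in DKO, a change of 0.08 (SE 0.23, adjusted p = 0.91), and its DKO arrays lay inside the control range. The TGF-beta co-receptor Eng read 382.4 to 666.4 and 522.7 to 569.7, a change of 0.08. The second probe set of Eng had the other sign (-0.29), with 209.4 to 326.6 on the controls and 147.5 to 251.8 in DKO. The lipid receptor S1pr1 read 92.2 to 239.9 and 147.2 to 199.5, a change of 0.17. A change near 0 with an SE of about that of Kdr does not show that a gene was level.

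Of the 7 tested ligands and secreted factors none passed the threshold in DKO, and 1, Angpt1, had an unadjusted p under 0.05. Vegfa, the principal VEGF, stood out in the tightness of its controls, which read 443, 452.9, 446.2 and 470.5. Its DKO arrays read 306.6, 357 and 298.3, all below the controls, and its second probe set did the same with 314.9 to 428 on the controls and 282.2, 200 and 241.5 in DKO. The log2 change was -0.49 (SE 0.319, adjusted p = 0.484). The SE rests on all 19 arrays, and Vegfa varied more in the other set, from 338.7 to 1059 in Ihh KO. Vegfa was called in 0 of 34 alternatives, however, and these include the fit to the first set alone. Angpt1, the activating ligand of Tek, read 282.4, 302.8, 150.6 and 204.4 on the controls and 214.5, 145 and 37.9 in DKO (log2 change -1.03, adjusted p = 0.265). Angpt2, its context-dependent antagonist, also spread widely in DKO, with 1019, 532.4 and 204.1 against 321.8 to 720.1 on the controls. The apelin ligand Apln read 100.4, 103.1 and 66.5 in DKO, near or under the lower end of a control range from 100.1 to 631.3, and its change of -1.17 had an SE of 0.663. Vegfc, a lymphatic and vascular growth factor, read 895 to 1104 on the controls and 1610, 1208 and 531.9 in DKO. Vegfb read 378.6 to 535.6 and 412 to 492.3, and the secreted endothelial factor Egfl7 read 833.6 to 1045 and 745.8 to 885.2 (-0.24). Esm1, an endothelial proteoglycan, gave at most 49.5 on any array.

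**Figure D3:**
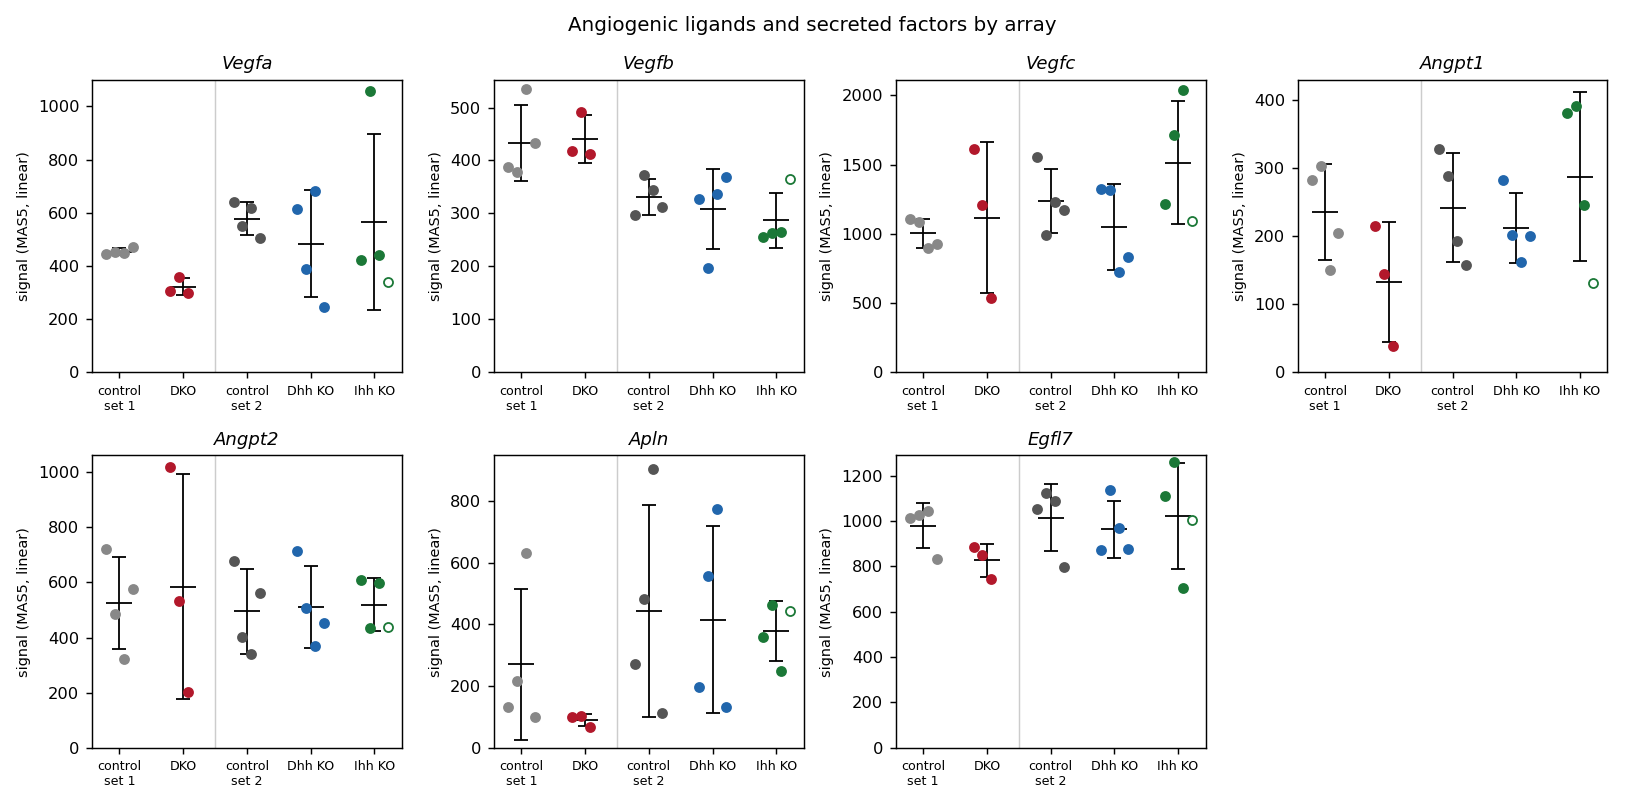
Deposited signal (linear, y axis from 0) of the 7 tested ligands and secreted factors on every array; points are arrays, horizontal bars are group means with ±1 SD and the open circle is the array labelled Ihh KO 4. Vegfa shows 3 DKO arrays between 298.3 and 357 below controls between 443 and 470.5, and Apln ranges from 111.6 to 903.3 among controls 5 to 8.

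Among the transcription factors Sox18, a regulator of vessel identity, read 1397 to 2066 on the controls and 1935, 1384 and 1208 in DKO (log2 change -0.19). Its relative Sox7 read 106.1 to 169.7 and 62.9 to 140.1 (-0.52, SE 0.279). The ETS factor Erg read 142.2 to 208.8 and 141.9 to 210.9, so the groups covered the same range. The endothelial Notch receptor Notch4 read 98 to 135.8 and 88 to 103.7 (-0.32), and its ligand Dll4 read 41.3 to 74.5 and 40.5 to 47.8, under the filter.

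The 3 DKO arrays differed from each other over the module. Relative to the mean of controls 1 to 4, the 35 members had a median log2 value of -0.08, -0.32 and -0.64 on DKO 1 to 3, with 21, 28 and 32 members below that mean. On the controls the medians were -0.08, 0.10, 0.17 and -0.15. DKO 3 gave the lowest value of the first set for 25 of the 35 members, control 4 for 5, DKO 2 for 3, controls 1 and 2 for 1 each and DKO 1 for 0. Without DKO 3 the count of called members was 1 (Aplnr), the median change was -0.24 and 24 members were lower.

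Markers of other cell types moved over the same arrays. The 7 tested pericyte genes, which mark the mural cells of capillaries, had median differences of -0.03, -0.52 and -0.86 on DKO 1 to 3, the order seen for the vessel genes. Of these, 6 were lower and 0 passed the threshold, and the summed signal of the list was 3120 to 4569 in DKO against 4596 to 6606 on the controls. The 7 smooth muscle genes had differences of -0.40, -2.62 and -1.13, with Myh11, Acta2, Actg2 and Lmod1 called lower and sums of 5183 to 11920 against 14000 to 18620. The 5 tested oviduct epithelium genes were higher in DKO by 3.21, 1.12 and 4.47, with Plet1, Wfdc2, Epcam and Cdh1 called. Sums over all 7 genes of that list were 2011 to 13500 against 754 to 1481. All sums given for lists include genes on the array that lay under the filter. The mast cell genes Cma1 and Tpsb2 and the red cell gene Alas2 were called higher, and the theca genes Cyp11a1 and Star lower. Sums for mast cell genes were 365.9 to 3623 in DKO against 109.8 to 204.6, for red cell genes 254.7 to 424.5 against 108.5 to 191.7, and for theca genes 14960 to 20470 against 29500 to 38920. No gene was called in the corpus luteum, lymphatic, macrophage, granulosa, oocyte, platelet or adipocyte lists, and no listed gene read 0 on any array. In the platelet and adipocyte lists only 1 gene each was tested. Sums for adipocyte genes were 64.88 to 3046 in DKO against 52.73 to 640.9 on controls 1 to 4. The corpus luteum list varied widely among the controls themselves, with medians of 0.10, 1.44, 0.79 and -3.40 on controls 1 to 4, and read -0.35, 1.05 and -1.97 in DKO. Whether the makeup of the tissue pieces had a part in the vessel result was not tested.

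**Figure D4:**
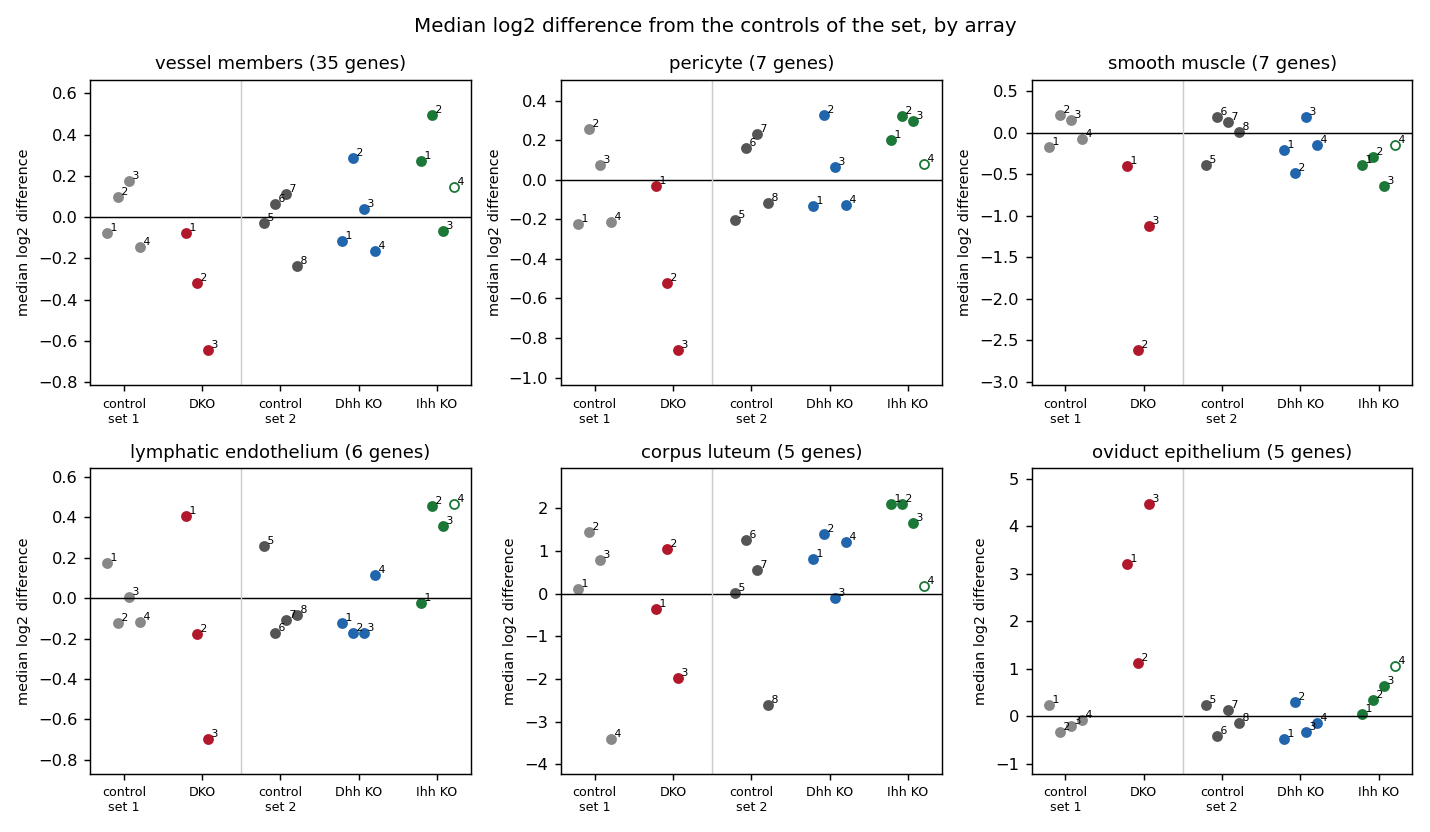
Median log2 difference of a gene list from the mean of the controls of the same set, for the vessel members and 5 marker lists; each point is an array, numbered as in the labels, the horizontal line is 0 and the open circle is the array labelled Ihh KO 4. Vessel members and pericyte genes fall in the order DKO 1, 2, 3, smooth muscle is lowest on DKO 2, oviduct genes are highest on DKO 3, and corpus luteum genes span -3.40 to 1.44 among controls 1 to 4.

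In Dhh KO no vessel gene passed the threshold against controls 5 to 8, which also serve Ihh KO. Of 35 members 0 were called and 0 had an unadjusted p under 0.05 (0% of all genes were called and 10.1% had such a p). The median change was 0.04, with 20 members higher (43.7% of all genes) and 15 lower, and on 0 members did the groups part (5.46% of all genes). Kdr had the highest change, 0.37 (SE 0.212, limma adjusted p = 0.58). It read 552.3, 719.1, 704 and 584.2 on controls 5 to 8 and 730.8, 1058, 826.3 and 713.9 in Dhh KO, where the lowest array lay just under the highest control. Sox7 had the lowest, -0.42, with 109.2 to 172.7 on the controls and 82.6, 165.4, 107.7 and 79.7 in Dhh KO. Aplnr read 2346, 1859, 2422 and 1879 on the controls and 2515, 3129, 2310 and 2502 in Dhh KO, a change of 0.30 (SE 0.144, adjusted p = 0.498), with the sign opposite to that in DKO. Dhh KO 2 was the highest array of its group for many members. Its median difference over the module was 0.29, against -0.12, 0.04 and -0.17 on Dhh KO 1, 3 and 4, and it gave the highest value of the whole second set for 7 members. Leaving out each array in turn left the count at 0 and the median between -0.08 and 0.09. With array weights the median was -0.07.

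In Ihh KO most vessel genes had values above the controls, and none passed the threshold. Of 35 members 0 were called (2 of all genes, 0.0162%), 26 were higher (46% of all genes) and 9 lower, and the median change was 0.18 against -0.02 for all genes. At an unadjusted p under 0.05 there were 5 members (14.3%, against 14% of all genes), all of them higher (5.19% of all genes). These were Mmrn2, Pecam1, Cd34, Cldn5 and Aplnr. On 3 members, Mmrn2, Pecam1 and Tek, all 4 Ihh KO arrays lay above the controls, as was so for 2.29% of all genes (6.28% did not overlap in either direction). Without Ihh KO 4 these were 4 members (11.4%, Cd34 besides these 3), against 5.1% of all genes. Only Vegfb then lay below every control (2.86% of the members, against 7.62% of all genes). Without Ihh KO 4 the count remained 0 (0.388% of all genes), 28 higher and 7 lower, and a median of 0.25. Then 6 members had an unadjusted p under 0.05, a share of 17.1% against 16% of all genes. They were Cd34, Icam2, Mmrn2, Pecam1 and S1pr1, with higher values, and Vwf, with lower ones, while Cldn5 and Aplnr no longer had such a p. Median centring raised the median of all genes in this comparison by 0.15 on the log2 scale.

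Mmrn2, with the smallest p of the module in Ihh KO, read 236.6, 227.1, 223.8 and 235.4 on controls 5 to 8, the narrowest control range of any member there. It read 363.2, 671.9, 367.2 and 295.6 in Ihh KO, so that every array exceeded the controls and Ihh KO 2 stood above the rest. The change was 0.79 (SE 0.252, limma adjusted p = 0.191), and 0.94 without Ihh KO 4 (adjusted p = 0.108). Pecam1 read 373.3, 547.8, 536.4 and 472.4 on the controls and 847.5, 919.8, 552.5 and 632.4 in Ihh KO, with Ihh KO 3 just above the highest control. Its change was 0.59 (SE 0.194, adjusted p = 0.20), and 0.65 without Ihh KO 4 (adjusted p = 0.155). Tek read 644.5, 720.3, 731.9 and 694 on the controls and 958.2, 1045, 768.5 and 790.6 in Ihh KO (0.34, and 0.39 without Ihh KO 4).

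Vwf had the lowest change of the 9 members with lower values in Ihh KO, the others being Sox7 (-0.33), Vegfb (-0.21), Vegfa (-0.17), Rasip1, Nrp1, Eng, Nos3 and Egfl7. It read 198.1, 137.4, 212.3 and 259.9 on the controls and 104.6, 112.5 and 142.2 on Ihh KO 1 to 3, but 300.5 on Ihh KO 4. Its change was -0.38 with all 4 arrays and -0.70 without Ihh KO 4 (SE 0.215, limma adjusted p = 0.138). The 4 members that fell in DKO read as follows in Ihh KO. Aplnr read 2626, 3102, 2304 and 2546 (0.32, and 0.33 without Ihh KO 4). Its second probe set had the other sign (-0.18), with 242.4 on Ihh KO 3 and 633.6 to 680.7 on the others against 505.6 to 645.9 on the controls. Emcn read 1508, 1666, 1119 and 1390 against 990.9, 1220, 1440 and 1084 on the controls (0.26, and 0.27). Cldn5 read 1085, 1150, 1004 and 1348 against 878.7, 880.1, 1033 and 830.1 (0.34, and 0.25), and Nrp1 read 1266, 1633, 1687 and 1392 against 1541, 1540, 1536 and 1679 (-0.08, and -0.05). Arrays of the groups overlapped for each of them. Ihh KO 2 was the highest array of the second set for 13 of 35 members. The median difference over the module was 0.27, 0.50, -0.07 and 0.14 on Ihh KO 1 to 4, so Ihh KO 3 lay within the range of controls 5 to 8 (-0.24 to 0.11) and the others above it.

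Corpus luteum and lymphatic genes also had higher values in Ihh KO, and no gene of any marker list was called in Dhh KO or Ihh KO. The 5 corpus luteum genes had medians of 2.10, 2.11, 1.65 and 0.18 on Ihh KO 1 to 4, against 0.01, 1.25, 0.56 and -2.61 on controls 5 to 8 (4 genes higher, Parm1 lower at -0.50), with sums of 8108 to 33420 against 2571 to 22910. Without Ihh KO 4 the sums were 27580 to 33420, above every control. The 6 lymphatic genes were all higher, with sums of 5892 to 7676 (5892 to 7560 without Ihh KO 4) against 5331 to 6651. The 7 smooth muscle genes were all lower (median -0.33), with sums of 9328 to 13270 (9328 to 11450 without Ihh KO 4) against 10770 to 14710. The 5 tested oviduct genes were all higher. Sums over all 7 genes of that list were 1297 to 2238 (1297 to 1767 without Ihh KO 4) against 913.9 to 1878. Of 7 macrophage genes 6 were higher, with sums of 8884 to 16090 with or without Ihh KO 4 against 8323 to 14650. Theca sums were 30650 to 34140 with or without Ihh KO 4, above the 27250 to 29520 of the controls. Of the 4 theca genes 3 were higher and Cyp17a1 was lower (-1.21). Mast cell sums were 174.1 to 1116 (467.8 to 1116 without Ihh KO 4) against 134.7 to 412.5. Of the 2 tested mast cell genes Cma1 was higher (1.46) and Tpsb2 lower (-0.10). Control 8, lowest of its set for corpus luteum genes, was also the lowest for the vessel members, as control 4 was in the first set. Their part in the vessel values was not tested. Compared directly, Ihh KO had the higher value on 28 of 35 members (48.7% of all genes) with a median of 0.15, 0 called (0% of all genes) and 2 at an unadjusted p under 0.05 (11.6% of all genes had one). Without Ihh KO 4 there were 29 higher, a median of 0.16, 0 called (0.21% of all genes) and 5 at an unadjusted p under 0.05, 4 of them higher (14.3%, against 15.4% of all genes).

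The change in DKO differed from that in each single knockout for 2 members. The DKO change minus the Dhh KO change was -1.33 for Aplnr (SE 0.212, limma adjusted p = 0.010) and -1.17 for Emcn (SE 0.247, adjusted p = 0.0405). It was called for 2 of 35 members, both lower, where 0.606% of all genes were called and 0.25% called lower. The DKO change minus the Ihh KO change was -1.34 for Aplnr (SE 0.212, adjusted p = 0.013) and -1.24 for Emcn (SE 0.247, adjusted p = 0.0379), again 2 of 35, where 0.396% of all genes were called and 0.153% called lower. These 2 comparisons share the DKO arrays and both sets of controls, so they do not count as separate support. For Cldn5 the differences were -0.67 against Dhh KO (adjusted p = 0.145) and -0.97 against Ihh KO (adjusted p = 0.056), and for Nrp1 they were -0.64 and -0.47. Leaving out Ihh KO 4, the differences from Ihh KO were -0.89 for Cldn5 (adjusted p = 0.0865) and -0.50 for Nrp1 (adjusted p = 0.214), so for these 2 members a difference between the mutants was not shown. Over the module 30 of 35 differences were below 0 against Dhh KO (43.6% of all genes, median -0.35) and 32 of 35 against Ihh KO (44.2% of all genes, median -0.54, and likewise 32 with a median of -0.57 without Ihh KO 4). The call of Emcn was fragile. It was lost on leaving out 12 of the 19 arrays in turn against Dhh KO (controls 1, 2, 3, 5, 6 and 8, each Dhh KO array, DKO 2 and DKO 3) and 10 of 19 against Ihh KO (controls 1, 2, 3, 5 and 6, Ihh KO 1, 2 and 4, DKO 2 and DKO 3). Without Ihh KO 4 it was -1.24 with an adjusted p of 0.0547, while Aplnr was -1.36 with an adjusted p of 0.025. Aplnr was lost for 1 array, DKO 3, against Ihh KO (-1.23, adjusted p = 0.0557) and for 0 of 19 against Dhh KO. With the mean of its probe sets Aplnr was also not called against Ihh KO (limma adjusted p = 0.0954). Its second probe set had a change of -0.18 in Ihh KO.

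Of 77 other vessel genes listed beside the module, 75 were on the array and 69 were tested. This list too was chosen with earlier results of these data known. In DKO 7 of the 69 (10.1%, against 3.02% of all genes) were called, 3 higher and 4 lower, so the calls did not go one way. Of this wider list 44 genes (63.8%) had lower values, against 45.9% of all genes. The median change was -0.11 against 0.02 for all genes. The semaphorin Sema3e, a repulsive guidance cue for endothelium, read 99.2, 48.5, 41 and 120.2 on controls 1 to 4 and 228.3, 587.4 and 568.1 in DKO. It rose by 2.48 (SE 0.383, limma adjusted p = 0.0018). The vasoconstrictor Edn1 read 117.2 to 146.4 and 298.9, 507.1 and 332.8, and rose by 1.45 (adjusted p = 0.003). The chemokine scavenger receptor Ackr3 read 915.9 to 1552 and 2082, 2744 and 2942, and rose by 1.13 (adjusted p = 0.008). All 3 had every DKO array above every control.

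Those that fell were Ednrb, Vegfd, Nr2f2 and Nrp2. The endothelin receptor Ednrb read 629.5 to 1079 on the controls and 411.3, 143 and 135 in DKO, and fell by 1.89 (SE 0.372, limma adjusted p = 0.0086). Nr2f2, a nuclear receptor of venous identity that ovarian stroma also makes, read 5175 to 5882 and 3662, 3213 and 2660, and fell by 0.78 (SE 0.117, adjusted p = 0.0016). The VEGF receptor ligand Vegfd read 218.6 to 281.1 and 173.7, 91.3 and 106.5, and fell by 0.96 (adjusted p = 0.017). Nrp2, the co-receptor related to Nrp1, read 1205 to 1698 and 1140, 1164 and 800.4, and fell by 0.55 (adjusted p = 0.025). Edn1 and Nr2f2 were called under all alternatives they could be tested in. The count was 4 without DKO 3, of which 3 were among these 7 (Edn1, Nr2f2 and Sema3e), and 5 without DKO 2, where Ednrb and Vegfd were lost. It was 3 in the fit to the first set alone, where Sema3e, Ednrb, Vegfd and Nrp2 were lost, and 4 with median centring, where Ackr3, Nrp2 and Vegfd were lost. Array medians for the wider list were 0.07, -0.04 and -0.34 on DKO 1 to 3, so DKO 1 and 2 lay near the controls (-0.06 to 0.03). In Dhh KO and in Ihh KO 0 of the 69 were called (limma), with 4 (5.8%, against 10.1% of all genes) and 8 (11.6%, against 14%) at an unadjusted p under 0.05. Of these, 3 of 4 and 4 of 8 were lower. Leaving out Ihh KO 4, the Ihh KO counts were 1 called (1.45%, against 0.388% of all genes) and 14 at an unadjusted p under 0.05 (20.3%, against 16%). The 1 was Cyyr1, named after its values were seen, which read 372.1, 476.6, 376.2 and 256.3 on controls 5 to 8 and 729.5, 1227, 1343 and 340 in Ihh KO. Its change was 1.54 without Ihh KO 4 (SE 0.279, limma adjusted p = 0.0209) and 1.13 with it (adjusted p = 0.177).

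The spread among controls sets what these arrays can show. For the 35 members the highest control of a set exceeded the lowest by a median of 1.48-fold in the first set and 1.56-fold in the second. It was 1.06-fold for Vegfa in the first and for Mmrn2 in the second, and 6.31-fold and 8.1-fold for Apln. Several members have more than 1 probe set (17 of 37). Of the 15 with several probe sets over the filter, 13 gave 1 direction in DKO (all but Eng and Erg), 8 did so in Dhh KO and 9 in Ihh KO.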

How the data were processed

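Whole-ovary RNA (PicoPure kit) was amplified by WT-Ovation Pico chemistry and biotin-labelled, per the labels' protocols, and hybridised to Affymetrix Mouse Genome 430 2.0 arrays. Deposited values are linear intensities, 1 for each probe set on each array. The submitters' processing notes name MAS5, without version or settings. Trimming 2 percent of signals at each end gave the same mean on every array. Median signals per array ranged from 101 to 159.8. The number of arrays limits the precision.

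Of 45101 probe sets (64 of them controls), 34945 carried 1 gene symbol, 932 several and 9224 neither, controls included. Symbols were checked by Entrez identifier against a RefSeq table (34741 matched, 0 changed). Values were used as log2(signal + 7.02), the pseudocount being the 10th percentile of all signals, without further normalization. Fold changes on this scale understate the change of low genes. Genes with a mean under the 40th percentile (log2 6.25) were left out. Means of 5 groups (controls of each hybridization set, Dhh KO, Ihh KO and DKO) were fitted over all 19 arrays with limma 3.58.1 in R 4.3.3 (lmFit, eBayes with an intensity trend, two-sided), with Benjamini-Hochberg adjustment over 12381 genes and a threshold of 0.05. A gene is said to rise, fall or be called only past that threshold. The fit was tested on simulated data. Alternatives were quantile normalization, median centring, other pseudocounts (29.4 or none) and filters (none or the 60th percentile), the mean of a gene's probe sets, pooled, matched or within-set controls, the replicate number as a block, array weights, no trend and each array left out. After the data were seen, DKO 2 alone and the replicate number as a random block were added. All members and the gene lists for vessels and cell types were chosen with earlier results of these data known. All 37 members are named, and other vessel genes are named where called.

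The labels number the arrays within groups and do not explain the numbers. Deviations from the group mean of same-numbered DKO and Dhh KO arrays correlated at 0.204, 0.133 and 0.177 across genes. Each value lay over a limit of 0.1. Arrays of different numbers were not compared, so these values cannot show whether the numbers pair these groups. The replicate number as a random block (correlation 0.011) left the same 2 members called for the DKO change minus the Dhh KO change. Promoters came from a RefSeq table of assembly GRCm38.p6. Figures were drawn with matplotlib 3.10.9 in Python 3.11.15.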

Additional observations from a re-analysis of the deposited data

Results flagged for a closer look

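Among 140 sets of 4 array values looked at (35 members in 4 groups), 11 had an end value set apart from the other 3 by Dixon's ratio, and chance flags about 1 in 20 such sets. On Dhh KO 2 Esam read 1037 (the others 661.1 to 700.6), Tek 1206 (721.6 to 787.1) and Erg 458.2 (187.2 to 200.8), each far above its group. Control 3 stood high for Cldn5 at 1129 (939.2 to 957.3) and for Emcn at 1262 (906.9 to 952.7), both members that fell in DKO. Control 4 stood low for Cd34 at 980.8 (1476 to 1534) and for Egfl7 at 833.6 (1013 to 1045). Rasip1 read 115.3 on Ihh KO 3 (289.2 to 307.6). Nrp1 read 1851 on control 2 (1685 to 1701) and 1679 on control 8 (1536 to 1541). Vegfb read 365.2 on the array labelled Ihh KO 4 (254.9 to 264.2), whose Dhh signal contradicts its label.

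The test of the difference between mutants set apart 2 members. The change in DKO minus that in Dhh KO was -1.327 for Aplnr and -1.17 for Emcn. Against Ihh KO the values were -1.345 for Aplnr and -1.237 for Emcn (limma adjusted p between 0.010 and 0.0405). Both comparisons use the same DKO and control arrays. The call of Emcn was lost on leaving out 12 of 19 arrays in turn against Dhh KO and 10 of 19 against Ihh KO. Without Ihh KO 4 its difference from Ihh KO had a limma adjusted p of 0.0547. For Aplnr the call was lost for 0 of 19 arrays against Dhh KO and 1 of 19 against Ihh KO. Against Ihh KO it was also lost with the mean of the probe sets (limma adjusted p = 0.0954).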

How the results depend on the processing

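The limits are few arrays, hybridization sets that hold different mutants and 1 array, DKO 3, with low values for most members. No called value changed sign, while the members' median in Dhh KO lay on either side of 0 (-0.07 with array weights). The counts of 0 called members in Dhh KO, in Ihh KO and between them held under every alternative run. Members called in DKO against control numbered 4, and 2 with median centring, 7 with all 8 controls as 1 group, 1 in the within-set fit and 1 with DKO 2 alone (an arm of 1 array, assumed to vary like the other groups). Leaving out 1 array gave 1 to 5. For the DKO change minus the Dhh KO change the count of 2 became 1 with median centring, 10 with all 8 controls pooled, 6 with matched controls and 1 with DKO 2 alone, and 1 to 3 with 1 array left out. For the DKO change minus the Ihh KO change the count of 2 became 1 with the mean of the probe sets (Emcn), 13 with all 8 controls pooled, 6 with matched controls and 1 with DKO 2 alone, and 0 to 6 with 1 array left out (0 without DKO 3). Pooling all 8 controls sets mutants of different sets against each other, and then 3220 and 2562 of all genes were called in the last 2 comparisons.

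The median change of the members moved by less than the spread of array medians (SD 0.221) under every alternative. With 1 array left out it lay between -0.49 and -0.24 in DKO, -0.08 and 0.09 in Dhh KO, 0.07 and 0.25 in Ihh KO, 0.05 and 0.28 for Ihh KO against Dhh KO, -0.53 and -0.23 for DKO minus Dhh KO and -0.70 and -0.40 for DKO minus Ihh KO. With the replicate number as a block (controls 1 to 4 and all mutant arrays) 3 members were called in DKO, with Cldn5 at an adjusted p of 0.0941, and the median was -0.42. Same-numbered control and DKO arrays correlated at 0.158, 0.274 and 0.0744. As arrays of different numbers were not compared, these values cannot show whether the number pairs these groups. The causes were not tested.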
